A study of Homo sapiens with 24 samples.

Results

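The subunits of the oxidative phosphorylation machinery were followed in 2 human cancer cell lines treated with 3 herbal extracts. Members were taken from the gene table by symbol: NDUFA, NDUFB, NDUFC, NDUFS or NDUFV followed by a digit, SDHA to SDHD, and every symbol that begins with UQCR, COX4 to COX8, ATP5 or MT-, without the NDUFAF assembly factors. The rule found 97 of the 14585 genes in the table. Of these, 84 were encoded in the nucleus and 13 in the mitochondrial genome. The nuclear members comprised 39 of complex I, 4 of complex II, 9 of complex III, 12 of complex IV and 20 of complex V, counted by symbol. The mitochondrially encoded members comprised 7 of complex I, 1 of complex III, 3 of complex IV and 2 of complex V, which are all the proteins this genome encodes. Choice by symbol left out CYC1 and NDUFAB1, which are also subunits, and placed NDUFA4 under complex I, although its product is now regarded as part of complex IV. It also took in ATP5IF1, the inhibitor of the ATP synthase, COX7A2L, a supercomplex assembly factor, and the readthrough genes ATP5MF-PTCD1 and NDUFC2-KCTD14, which share reads with their parent genes. COX4I2, COX6A2 and COX7A1 were not analysed here.

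Oxidative phosphorylation couples electron transport through complexes I to IV of the inner mitochondrial membrane to ATP synthesis by complex V. Complex I takes electrons from NADH, complex II from succinate, complex III passes them from ubiquinol to cytochrome c, and complex IV reduces oxygen. Subunits of every complex other than complex II come from both genomes. The mitochondrial genes are transcribed by a dedicated polymerase as long polycistronic RNAs, whereas the nuclear genes are transcribed singly and share regulators such as NRF1, GABPA, YY1 and the coactivator PPARGC1A (PGC-1alpha).

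The cells were A549, a lung carcinoma line, and Huh7, a hepatoma line, both given as wild type in the labels. The study describes p53 as wild type in A549 and as mutant in Huh7. Each line had 4 groups of 3 libraries, 24 in all: a control, and cells treated with extracts of Pulsatilla chinensis (P. chinensis), of Bupleurum chinense (B. chinense) or of the fungus Polyporus umbellatus (P. umbellatus). The study prepared ethanol extracts, freeze-dried and taken up in DMSO, and the dose, the exposure time and the treatment of the control cells were not given for the sequenced libraries in the sources used here. Each line is a single established line, and nothing says that the replicates were separate cultures, so the p-values measure the spread between these libraries only. The 3 comparisons of a line used the same control libraries.

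Library totals ranged from 6803704 to 24345541 estimated counts. The liver markers ALB (2750 to 4880 CPM) and AFP (1820 to 2650 CPM) were present in every Huh7 library and stood at most at 0.714 CPM in A549, while KRT7 stood at 1550 to 1770 CPM in A549 and at most at 0.123 CPM in Huh7. CPM values are counts scaled to each library's total with TMM factors. Of the markers for other cells, PTPRC reached at most 3.28 CPM, COL1A1 7.75 CPM and COL3A1 0.985 CPM, whereas CD68 stood at 14.6 to 40.7 CPM in both lines and PECAM1 at 31.8 to 55.9 CPM in Huh7. The 3 Huh7 P. umbellatus libraries stood apart: the median chi-square over genes between replicates, relative to the median that sampling alone gives, was 10.6, 4.92 and 14 for their pairs, against 2.7 to 4.21 for all other replicate pairs. No pair of replicates differed by less than the sampling noise. The Huh7 P. umbellatus libraries held 7182444 to 10328734 counts, against 16455709 to 24345541 in the Huh7 controls. Such depth was not particular to them, since the Huh7 B. chinense libraries held 9526159 to 11546100. Results of the Huh7 P. umbellatus group are given with and without single libraries.

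In the control cells, most mitochondrially encoded subunits stood above every nuclear one per length of transcript, and in both lines MT-ND5 and MT-ND6 lay below the highest nuclear member. The 13 genes took 3.27% ± 0.248 (SD, n = 3) of all counts in A549 control libraries and 2.13% ± 0.171 (n = 3) in Huh7 control libraries, against 0.628% ± 0.00948 and 0.696% ± 0.00547 for the 84 nuclear genes. On the scale of CPM per kilobase of the canonical transcript, MT-CO1, the catalytic subunit of complex IV, was highest at 9324 in A549 and 6777 in Huh7, followed by MT-CO3 (5391 and 2816) and MT-CO2 (4610 and 2683). The lowest mitochondrial levels per kilobase were those of MT-ND6 (480.4) and MT-ND5 (482.4) in A549, which did not differ beyond their spread, and of MT-ND5 (345.2) in Huh7, where MT-ND3 (472.5) also lay below the highest nuclear member. Among nuclear members, ATP5F1B, the catalytic beta subunit of the ATP synthase, was highest with 554.8 and 590.7 CPM per kilobase, and the medians were 51.08 and 55.06. COX6B2, an isoform known from testis, was lowest in A549 with 0.3639, and NDUFA4L2, a hypoxia-inducible paralogue of NDUFA4, was lowest in Huh7 with 0.6249. The median transcript lengths were 781 bases for nuclear and 784 for mitochondrial members. Estimated counts of mitochondrial genes can be shared with their nuclear copies, and those of many nuclear members with processed pseudogenes.

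The control groups of both lines differed in 44 of the 81 nuclear members tested in both, 17 higher and 27 lower in A549 (edgeR quasi-likelihood test, Benjamini-Hochberg adjusted p below 0.05), and in 8 of the 13 mitochondrial members, all higher in A549. Over all 12924 genes tested, 33.8% were called higher and 34.9% lower in A549. Every mitochondrial gene lay above 0 in this contrast, with a median log2 difference of 0.62 and a range from 0.11 to 1.49. The largest were MT-ND1 (1.49 ± 0.27 SE, adjusted p = 4.62e-05), MT-ND2 (1.08 ± 0.24, adjusted p = 0.000342) and MT-CO3 (0.94 ± 0.18, adjusted p = 9.56e-05). Without A549 control replicate 1 the mitochondrial count was 5, and without Huh7 control replicate 2 it was 4. The shares over all genes in these fits are not given here.

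The nuclear members lower in A549 were led by complex I genes. NDUFA13, also known as GRIM-19, stood at 35.47, 46.03 and 40.88 CPM in A549 control libraries against 151.9, 154.8 and 158.9 CPM in Huh7 (log2 difference -1.92 ± 0.13, edgeR adjusted p = 1.88e-11). NDUFV1 and NDUFV2, which form the NADH-oxidising module, differed by -1.38 and -1.27 and NDUFC2 by -1.28. Those higher in A549 were led by UQCRFS1, the Rieske iron-sulfur subunit of complex III, at 265, 275.8 and 275.7 CPM against 103.4, 103.8 and 95.2 CPM (1.43 ± 0.086, edgeR adjusted p = 1.49e-12). COX7B (1.10), NDUFB10 (1.05) and COX7A2L (1.02) followed. In these 2 genes with values per library, the lines did not overlap.

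**Figure D1:**
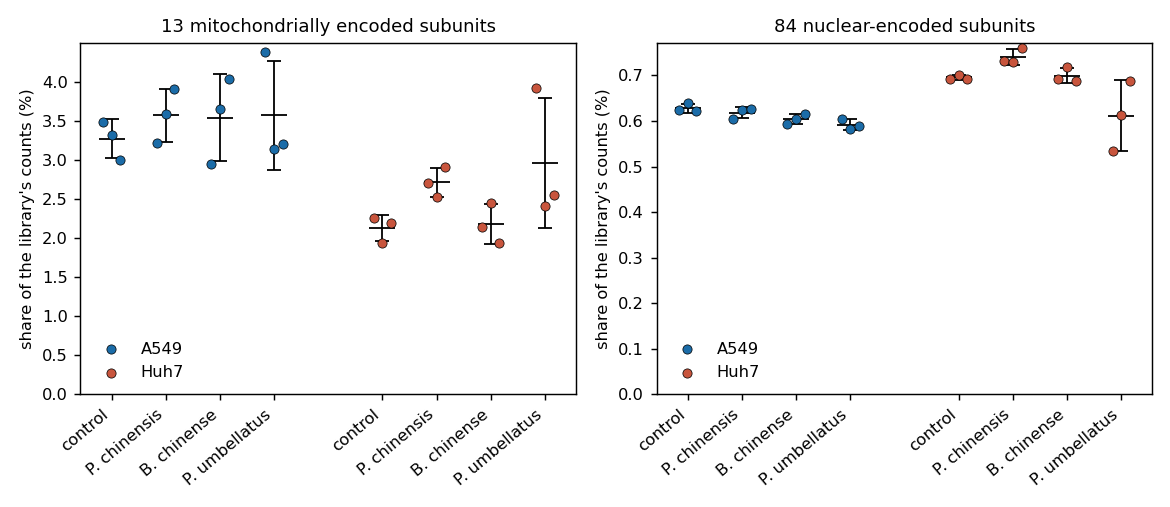
Share of each library's counts (%) on the 13 mitochondrially encoded subunits (left) and on the 84 nuclear-encoded subunits (right), by group. Points are libraries, horizontal lines are means and bars are the SD (n = 3); the mitochondrial share of the first Huh7 P. umbellatus library is 3.91%, against 2.41% and 2.55% in the other libraries of that group.

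The first question was whether the herbs moved the nuclear and the mitochondrially encoded subunits alike in A549 cells. Called changes of nuclear subunits were few. With TMM scaling nearly all were downward, a balance that did not hold after a correction for GC content and length or, for P. chinensis and B. chinense, with library totals. A single mitochondrial gene, MT-CO1, rose with every herb. Of the 81 nuclear members tested in A549, 1 rose and 7 fell with P. chinensis, 0 rose and 8 fell with B. chinense, and 0 rose and 9 fell with P. umbellatus. The corresponding shares over all 13633 genes tested were 15.8% up and 17.1% down with P. chinensis, 13.1% up and 15% down with B. chinense, and 13.4% up and 14.8% down with P. umbellatus. The shares of nuclear members that fell and that rose were thus both below those of all genes. Median log2 fold changes of the nuclear members were -0.06, -0.10 and -0.10, against 0.01, -0.00 and -0.01 for all genes. At an unadjusted p under 0.05, 1 nuclear member each was up with B. chinense and P. umbellatus, and DESeq2 called 0 up in both. With library totals in place of TMM factors the calls over all genes shifted to 20.2% up and 12.8% down with P. chinensis and to 16.1% up and 11.2% down with B. chinense, and the nuclear members to 2 up and 1 down and to 2 up and 3 down. After the correction for GC content and length, 3 nuclear members rose and 3 fell with P. chinensis, 2 rose and 3 fell with B. chinense, and 3 rose and 4 fell with P. umbellatus, and the medians were -0.00399, -0.000346 and 0.0128. Shares over all genes under that correction are not given here, so these counts describe the members only. Without a single library, 4 fell with P. chinensis when its replicate 1 was left out and 3 without control replicate 2, 3 fell with B. chinense without its replicate 1 and 5 without control replicate 1 or 2, and 5 fell with P. umbellatus without control replicate 2. For these fits, too, the shares over all genes are not given here. NDUFA6, NDUFA4L2 and NDUFC2-KCTD14 had a mean of 5 counts or fewer and were not tested in A549. CPM values are relative to each library's total, so they do not show the number of cells or the amount of RNA per cell.

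The calls of the ATP synthase recurred across the herbs. ATP5F1B stood at 982.9, 975.8 and 968.8 CPM in the A549 controls. It stood at 806.4, 829.6 and 785.9 CPM with P. chinensis, at 816.3, 800.8 and 848.9 CPM with B. chinense and at 820.5, 823.4 and 833.3 CPM with P. umbellatus. All 9 treated libraries lay below all 3 controls, with log2 fold changes of -0.27 ± 0.036 (edgeR adjusted p = 4.34e-05), -0.25 ± 0.036 (adjusted p = 0.00015) and -0.24 ± 0.036 (adjusted p = 0.000178). These calls held in all 9 alternative settings and without any single library. Of the genes for the c subunit of the rotor ring, ATP5MC1 stood at 101.9, 106.3 and 106.8 CPM in controls and at 91.08, 92.41 and 87.72 CPM with P. chinensis, with no overlap. ATP5MC1 fell by 0.22, 0.22 and 0.16 on the log2 scale with P. chinensis, then B. chinense, then P. umbellatus (edgeR adjusted p = 0.00743, 0.00855 and 0.0416), and ATP5MC3 by 0.18, 0.15 and 0.16 (adjusted p = 0.0143, 0.0472 and 0.027). The third, ATP5MC2, fell with B. chinense by 0.17 (adjusted p = 0.0213), and its values with the other herbs were -0.10 and -0.03, not called. ATP5F1C, the central stalk subunit, also fell with B. chinense, by 0.20 (edgeR adjusted p = 0.0216). The weakest of these calls, ATP5MC3 with B. chinense, was kept in 0 of 9 settings, and ATP5MC1 with P. umbellatus in 1 of 9.

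Complex III and IV gave the next calls. UQCRFS1 stood at 265, 275.8 and 275.7 CPM in the A549 controls, at 241.3, 243.4 and 244.7 CPM with P. chinensis, at 248.7, 225.1 and 241.9 CPM with B. chinense and at 239.6, 241.5 and 240.2 CPM with P. umbellatus. Again no treated library reached a control value, and the log2 fold changes were -0.16, -0.19 and -0.18 (edgeR adjusted p = 0.00964, 0.00443 and 0.00623). The core subunit UQCRC1 fell by 0.22 with P. chinensis (adjusted p = 0.0284). With P. umbellatus, UQCR11, a small complex III subunit, stood at 27.75, 22.01 and 28.27 CPM against 38.26, 34.13 and 37.8 CPM in controls. This was the largest called fall among the nuclear members in A549 (-0.49 ± 0.10, edgeR adjusted p = 0.00227), and it held in all 9 settings and without any single library. COX8A of complex IV (-0.29, adjusted p = 0.00309) and ATP5PD of the ATP synthase stalk (-0.31, adjusted p = 0.00767) fell with P. umbellatus too, and both calls were lost after correction for GC content and length. The single nuclear rise was that of COX6A1, a complex IV subunit, which stood at 151.9, 147.8 and 135 CPM in controls and at 160.5, 154.9 and 167.2 CPM with P. chinensis (0.15 ± 0.053, adjusted p = 0.0405).

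Complex I, with 36 nuclear members tested in A549, gave 1 call each with P. chinensis (NDUFV1, -0.17, edgeR adjusted p = 0.0415) and B. chinense (NDUFS1, -0.14, adjusted p = 0.0372) and 0 with P. umbellatus. The call of NDUFV1 was kept in 1 of 9 settings and that of NDUFS1 in 2 of 9. Among the 4 genes of complex II, all nuclear, SDHB, the iron-sulfur subunit, stood at 83.36, 80.55 and 81.77 CPM in controls and at 67.38, 64.7 and 70.01 CPM with B. chinense (-0.28 ± 0.086, adjusted p = 0.0237). It stood at 63.69, 71.93 and 73.37 CPM with P. chinensis (-0.23, adjusted p = 0.05, just past the threshold and kept in 1 of 9 settings) and at 76.92, 71.11 and 60.01 CPM with P. umbellatus (-0.23, adjusted p = 0.0539, not called). SDHD, a membrane anchor, fell with P. umbellatus by 0.21 (edgeR adjusted p = 0.0461), a call kept in 0 of 9 settings. SDHA and SDHC passed the test with no herb in A549, and their log2 fold changes lay between -0.13 and 0.09.

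MT-CO1 was the only mitochondrial gene called in A549, 1 of 13 with each herb. It stood at 15350, 14170 and 13610 CPM in controls, at 16290, 17350 and 18340 CPM with P. chinensis, at 15450, 17020 and 17070 CPM with B. chinense and at 17980, 15960 and 15730 CPM with P. umbellatus. Every treated library lay above every control library. The log2 fold changes were 0.27 ± 0.061 (edgeR adjusted p = 0.0036), 0.20 ± 0.061 (adjusted p = 0.0252) and 0.20 ± 0.061 (adjusted p = 0.0225). The first held in all settings and without any single library. The second was lost without B. chinense replicate 2 or 3 or control replicate 2 or 3, and the third without control replicate 2 or 3 or P. umbellatus replicate 1, leaving 0 mitochondrial members called up. The other 12 genes ranged from -0.43 to 0.21 with P. chinensis, from -0.31 to 0.17 with B. chinense and from -0.33 to 0.31 with P. umbellatus. The lowest of these was MT-ND2, with 2024, 1961 and 1670 CPM in controls against 1200, 1494 and 1492 CPM with P. chinensis (-0.43 ± 0.19, adjusted p = 0.1). Its groups did not overlap, but the difference did not pass the adjusted threshold. In the fit of the 6 libraries of control and P. chinensis alone, 3 mitochondrial members were called down, and the share over all genes in that fit is not given here. The summed mitochondrial share was 3.57% ± 0.343, 3.54% ± 0.554 and 3.57% ± 0.696 with P. chinensis, then B. chinense, then P. umbellatus, which overlapped the control share in each case.

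**Figure D2:**
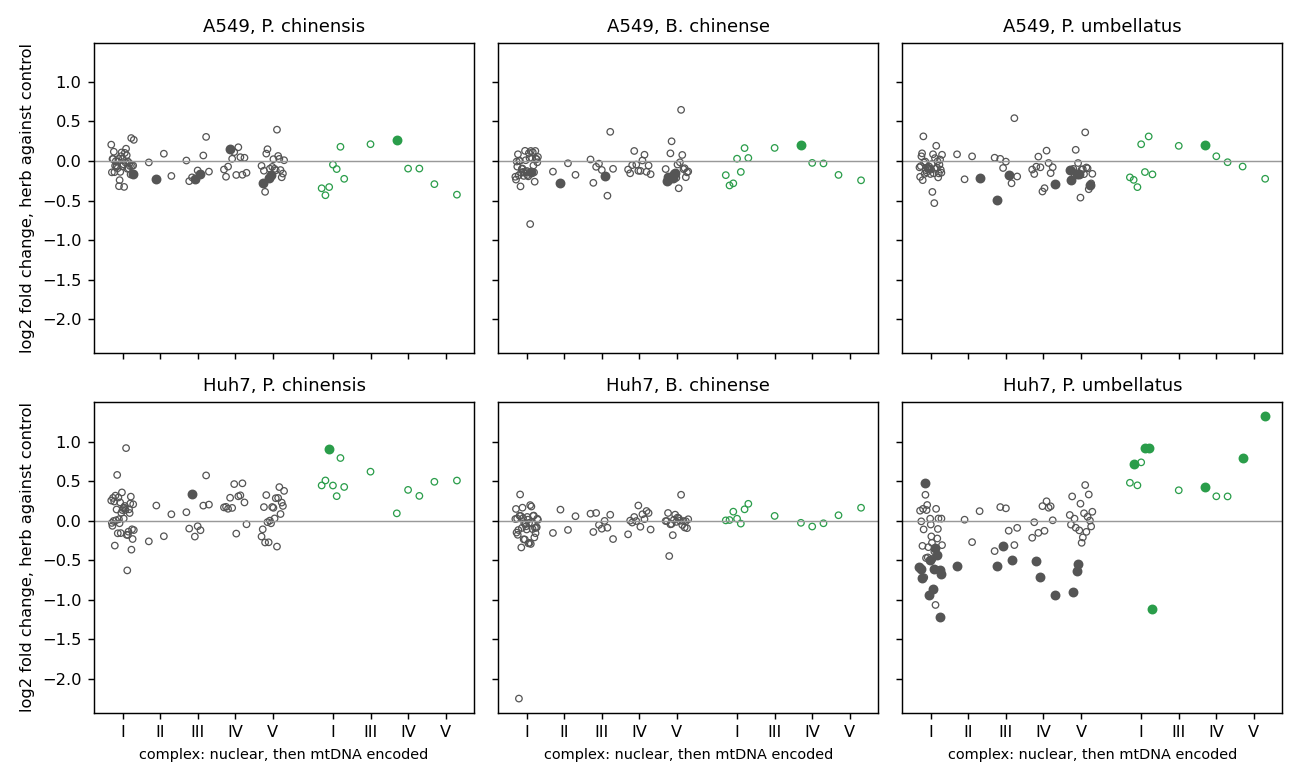
Log2 fold change of every tested member, herb against control, by complex, with nuclear members (grey) to the left and mitochondrially encoded members (green) to the right of each panel. Filled points passed the edgeR quasi-likelihood test at an adjusted p below 0.05; in Huh7 cells with P. umbellatus 22 nuclear members fell and 6 mitochondrial members rose, and with B. chinense no member was called.

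In Huh7 cells with P. chinensis, all 13 mitochondrially encoded genes lay above 0, from 0.09 to 0.91 on the log2 scale. Their median was 0.44, whereas the median of the 84 nuclear members was 0.14 and that of all genes 0.01. The test of A549 against Huh7 responses, given below, called 1 mitochondrial and 2 nuclear members. Over all genes that test called 10.3% higher and 9.3% lower. Few of the Huh7 values against control passed the test. A single mitochondrial gene, MT-ND3, and a single nuclear gene, UQCRB, rose, and 0 members fell, where over all 13875 genes tested 10.5% rose and 10.5% fell. At an unadjusted p under 0.05, 10 nuclear members were up and 3 down and 4 mitochondrial members were up and 0 down, and DESeq2 called 2 nuclear members up, 3 down and 2 mitochondrial members up. After the correction for GC content and length, 2 nuclear members rose and 8 fell, and the nuclear median was 0.0413. Shares over all genes under that correction are not given here. With library totals in place of TMM factors, 13.2% of all genes were called up and 8.17% down, with 5 nuclear members up. MT-ND3, a core membrane subunit of complex I, stood at 179.4, 138.3 and 172.8 CPM in controls and at 301.8, 271 and 347 CPM with P. chinensis. The treated libraries lay clear of the controls (0.91 ± 0.17, edgeR adjusted p = 0.00224), and the call held in all 9 settings and without any single library. UQCRB, a complex III subunit that contributes to ubiquinone binding, stood at 24.18, 20.96 and 23.6 CPM in controls and at 29.02, 26.81 and 31.18 CPM with P. chinensis (0.34 ± 0.11, adjusted p = 0.0408). Its call was kept in 8 of 9 settings and in 3 of the 12 fits that left out 1 library.

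The separation of the libraries was wider than the calls. In 11 of the 13 mitochondrial genes, and in 28 of the 84 nuclear genes, all 3 P. chinensis libraries lay above all 3 controls, which was so for 26.7% of all genes, and in 0 and 13 they lay below, which was so for 26.6%. MT-ND5 stood at 660.6, 556.2 and 660 CPM in controls and at 1042, 995.5 and 1211 CPM with P. chinensis (0.79 ± 0.30, edgeR adjusted p = 0.0818). MT-CYB, the cytochrome b of complex III, stood at 1222, 1079 and 1265 CPM against 1805, 1651 and 2018 CPM (0.62 ± 0.25, adjusted p = 0.098). Neither passed, although their groups did not overlap. MT-CO1, by contrast, stood at 10760, 9979 and 10610 CPM in controls and at 11210, 10660 and 11510 CPM with P. chinensis (0.09 ± 0.072, adjusted p = 0.424), so that the groups overlapped. The mitochondrial share of counts was 2.71%, 2.53% and 2.9% with P. chinensis against 2.26%, 1.93% and 2.19% in controls, and the nuclear share was 0.732%, 0.729% and 0.761% against 0.693%, 0.702% and 0.692%, with no overlap in either.

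The number of calls with P. chinensis in Huh7 changed with the libraries that entered the fit, and the cause was not tested. When only the 6 libraries of control and P. chinensis were fitted, 25 nuclear members rose and 11 fell, and 12 of the 13 mitochondrial members rose. Without P. umbellatus replicate 1, 12 nuclear members rose, 1 fell and 6 mitochondrial members rose, and without P. umbellatus replicate 2 these counts were 7, 6 and 4. Leaving out P. umbellatus replicate 3 gave 3 nuclear members that fell and 2 mitochondrial members that rose. Without any single P. chinensis or B. chinense replicate, or without control replicate 1 or 2, 0 nuclear members rose. The median of the nuclear members was 0.06 without P. chinensis replicate 3. Shares over all genes are not given here for these fits. The counts therefore do not show whether the members changed more than other genes.

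**Figure D3:**
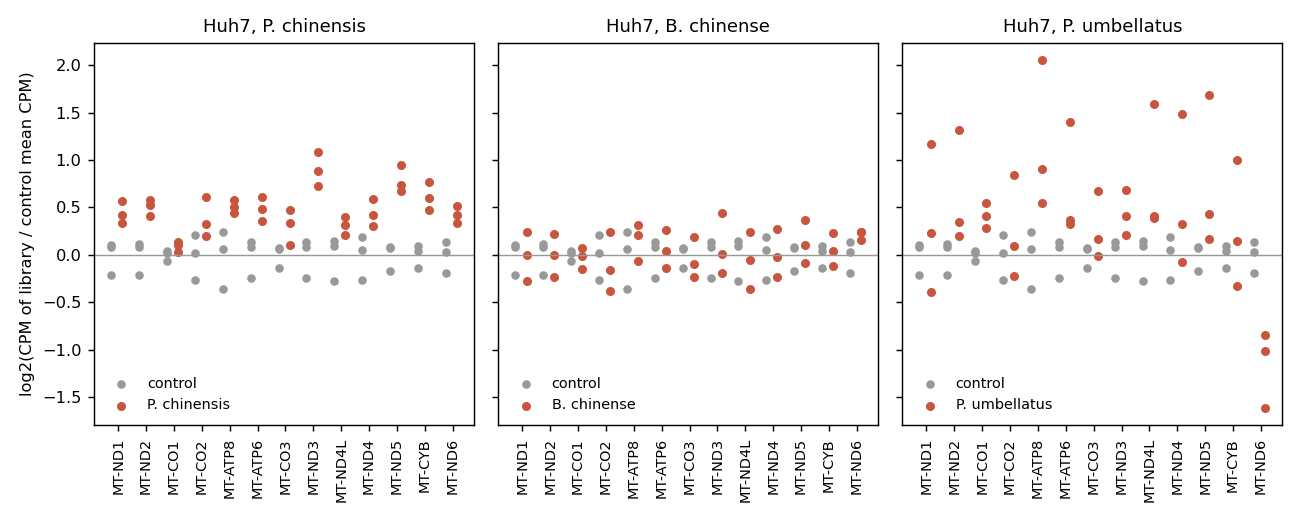
Each Huh7 library's CPM of the 13 mitochondrially encoded genes as a log2 ratio to the mean of the 3 controls, for P. chinensis, B. chinense and P. umbellatus (controls in grey, treated libraries in red; genes in their order along the genome with MT-ND6, encoded on the other strand, last). With P. chinensis 11 genes show treated libraries wholly above the controls, and with P. umbellatus MT-ND6 lies below them while MT-CO1 lies above.

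With B. chinense in Huh7, 0 nuclear and 0 mitochondrial members passed the edgeR quasi-likelihood test, where over all genes 0.519% rose and 0.757% fell. At an unadjusted p under 0.05, 4 nuclear members were down and 0 up, 0 mitochondrial members were called in either direction, and DESeq2 called 1 nuclear member down. Over all genes, 0.714% were called up and 0.591% down with library totals in place of TMM factors. Medians were -0.01 for nuclear and 0.02 for mitochondrial members. All 3 treated libraries lay above all 3 controls in 3 nuclear and 1 mitochondrial members and below them in 13 and 0, against 13.7% and 15.4% of all genes. The lowest value belonged to NDUFA3, a small accessory subunit of complex I named here after its values were seen. NDUFA3 stood at 1.355, 7.027 and 7.548 CPM in controls and at 0.2084, 2.518 and 0.2544 CPM with B. chinense (-2.25 ± 0.76, adjusted p = 0.183), and the groups overlapped.

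With P. umbellatus in Huh7 and TMM scaling, most called nuclear and mitochondrial members went opposite ways. Of 84 nuclear members 22 fell and 1 rose, while 6 of 13 mitochondrial members rose and 1 fell. Over all genes 19.3% rose and 17.8% fell. Median log2 fold changes were -0.15 for nuclear members, 0.48 for mitochondrial members and 0.03 for all genes. All 3 treated libraries lay below all 3 controls in 27 nuclear members and 1 mitochondrial member, where 23.6% of all genes did, and above them in 2 and 7, where 24.8% did. The nuclear falls comprised 12 of 39 complex I genes, 1 of 4 of complex II, 3 of 9 of complex III, 3 of 12 of complex IV and 3 of 20 of complex V. Without any single P. umbellatus library, 19 to 30 nuclear members fell, and without Huh7 control replicate 1, 14 fell. In the fit of the 6 libraries of control and P. umbellatus alone, 6 nuclear members fell and 1 mitochondrial member rose. For these fits with fewer libraries, the shares over all genes are not given here.

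NDUFS7, an iron-sulfur subunit of complex I next to the quinone site, showed the largest fall. It stood at 25.28, 28.72 and 27.4 CPM in the Huh7 controls and at 8.426, 8.643 and 16.97 CPM with P. umbellatus (-1.23 ± 0.21, edgeR adjusted p = 0.00194). All treated libraries were lower than all controls, and the third P. umbellatus library was nearest to them. The third library also lay nearest to the controls for COX8A, at 37.74, 31.26 and 79.37 CPM against 93.56, 105.5 and 90.11 CPM (-0.94 ± 0.25, adjusted p = 0.0124), and for NDUFB11, an accessory subunit of complex I, at 25.89, 21.17 and 38.95 CPM against 59.05, 52.82 and 55.25 CPM (-0.94 ± 0.18, adjusted p = 0.00253). Of the ATP synthase, ATP5F1D, the delta subunit of the stalk, stood at 45.31, 25.21 and 47.29 CPM against 56.94, 76.99 and 88.61 CPM (-0.91 ± 0.20, adjusted p = 0.00534). SDHA, the flavoprotein of complex II, stood at 36.15, 40.19 and 44.74 CPM against 57.99, 62.38 and 60.26 CPM (-0.57 ± 0.12, adjusted p = 0.00497). The calls of NDUFB11, NDUFB8 (-0.87), NDUFB9 (-0.61) and SDHA held in all 9 settings and without any single library. The only nuclear rise was NDUFA5, an accessory subunit of complex I, at 40.3, 74.47 and 48.07 CPM against 41.44, 37.35 and 37.66 CPM (0.48 ± 0.17, adjusted p = 0.0431). Its groups overlapped, the second P. umbellatus library stood high, and the call was kept in 3 of 9 settings and lost without that library.

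The GC content of the transcripts moved with these values. The canonical transcripts of the 22 nuclear members that fell had a median GC content of 54.8%, against 45.9% in those not called, and the log2 fold change of the 84 nuclear members fell with GC content (Spearman's rho = -0.654 across genes, which are not independent replicates), as it did over all genes (-0.669). In the other 5 comparisons this rho lay between -0.328 and 0.119 over the nuclear members. With counts corrected for GC content and length in each library, rho was 0.257 and the shares called over all genes were 9.51% up and 9.9% down. Of the 22 falls, 18 kept their sign and 12 were still called, among them NDUFB8 (-0.54), COX8A (-0.48), SDHA (-0.46) and NDUFB11 (-0.32). NDUFS7 stood at -0.17 (edgeR adjusted p = 0.367) and was no longer called, ATP5F1D at 0.10 had changed sign, and NDUFA5 stood at 0.05. UQCRC1 (0.22, adjusted p = 0.0162) and NDUFS8 (0.21, adjusted p = 0.0415) had changed sign and were called up. Under the correction 5 nuclear members were called up. NDUFB7, at -0.49 and not called before, was among them (0.59, edgeR adjusted p = 0.00269). The total called down under the correction is not given here. With the replicate block added to the correction, 4 nuclear members were called up and 17 down, and the shares over all genes are not given for that fit. The part of GC content and of library quality in the uncorrected values was not tested.

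**Figure D4:**
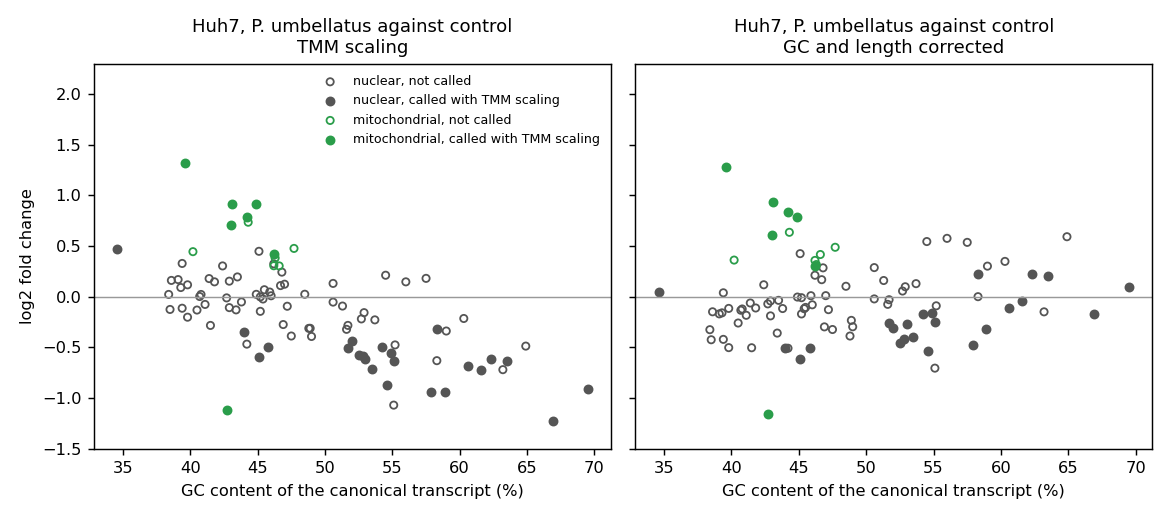
Log2 fold change of each member with P. umbellatus in Huh7 cells against the GC content (%) of its canonical transcript, with TMM scaling (left) and after the correction for GC content and length (right). Nuclear members are grey and mitochondrial members green, and filled points were called with TMM scaling in both panels; rho over the nuclear members is -0.654 on the left and 0.257 on the right, and MT-ND6 stays near -1.1 in both.

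MT-ND6 moved against the other mitochondrial genes. It is the only one of the 13 genes read from the opposite strand, and it lies end to end with MT-ND5. The bases around that border are shown because MT-ND5 rose and MT-ND6 fell with P. umbellatus. They are chrM:14119-14178 of GRCh38, read on the strand of MT-ND5, with the last 30 bases of MT-ND5 in lower case and the adjoining 30 bases of MT-ND6, which is encoded on the other strand, in capitals.
MT-ND5 to MT-ND6: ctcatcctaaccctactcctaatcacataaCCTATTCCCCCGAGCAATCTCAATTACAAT
MT-ND6 stood at 240.5, 205.5 and 258.6 CPM in the Huh7 controls and at 116.1, 76.63 and 130.8 CPM with P. umbellatus. The fall of 1.12 on the log2 scale (SE 0.15, edgeR adjusted p = 0.000702) left no overlap, and it held in all 9 settings and without any single library, with -1.16 after the correction for GC content and length. MT-ND5 stood at 660.6, 556.2 and 660 CPM in controls and at 2006, 700.5 and 845.6 CPM with P. umbellatus (0.92 ± 0.30, adjusted p = 0.0309). Per 1000 counts of the other 12 mitochondrial genes, MT-ND6 had 2.917, 3.088 and 5.087 counts in the P. umbellatus libraries and 10.61, 10.59 and 11.74 in the controls. The ranges with P. chinensis (10.51 to 12.95) and B. chinense (11.57 to 13.99) lay near or above the Huh7 controls, and the A549 groups together ranged from 5.561 to 9.287. The library kit keeps strand, but the strand setting of the quantification was not given in the sources used here, so reads of the strand complementary to MT-ND6 could not be told apart from its own.

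Of the mitochondrial genes that rose with P. umbellatus in Huh7, MT-CO1 was the steadiest. It stood at 15250, 13930 and 12720 CPM against 10760, 9979 and 10610 CPM in controls (0.42 ± 0.072, edgeR adjusted p = 0.00195), and the call held in all settings and without any single library. The other 5 were MT-ATP8 (1.32 ± 0.30, adjusted p = 0.00654), MT-ND5, MT-ND4L (0.91), MT-ATP6 (0.79) and MT-ND2 (0.71). MT-ATP8, a small stalk subunit of the ATP synthase, stood at 549.5, 248.6 and 193.3 CPM against 156.4, 102.7 and 137.7 CPM in controls. In these genes the first P. umbellatus library was the highest. Its mitochondrial share was 3.91% of counts, against 2.41% and 2.55% in the other libraries of the group and 1.93% to 2.26% in controls, and its nuclear share was the lowest of all 24 libraries at 0.534%. Without that library, or without control replicate 2 or 3, 2 mitochondrial members rose, and without P. umbellatus replicate 2, 11 rose. The shares over all genes in these fits are not given here, so these counts describe the members only. After the correction for GC content and length, MT-CO1 (0.31) and MT-ATP8 (1.28) were still called up. MT-ATP8 and MT-ATP6 share 46 bases and MT-ND4L and MT-ND4 share 7, so their estimated counts are not independent.

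The study set P. chinensis apart from the other herbs, and it was compared with their mean in the same fits. In A549, 0 members of either class passed the edgeR test, where over all genes 1.15% were higher and 2.42% lower with P. chinensis. At an unadjusted p under 0.05, 5 nuclear members were higher and 2 lower, and DESeq2 called 0. In Huh7, 12 nuclear members were higher and 2 lower with P. chinensis and 2 mitochondrial members were higher, against 9.69% and 12.1% of all genes. The mitochondrial members were MT-ND6 (0.88 ± 0.13, adjusted p = 0.000691) and MT-ND3 (0.63 ± 0.14, adjusted p = 0.00878). Those of the nuclear genome were led by 4 complex I genes, NDUFS6 (0.66), NDUFB8 (0.64), NDUFB9 (0.58) and NDUFB7 (0.55), and the lower ones were NDUFS1 (-0.24) and ATP5F1A (-0.23). After the correction for GC content and length, 3 of the 12 higher members changed sign, NDUFB7 (-0.0529), NDUFB10 (-0.0135) and NDUFA13 (-0.0155), NDUFS6 was no longer called (0.236), and NDUFB8 (0.323) and NDUFB9 (0.265) were still called. For NDUFB8 the P. chinensis libraries stood at 65.03, 57.79 and 77.25 CPM, those of B. chinense at 60.02, 61.79 and 50.12 CPM and those of P. umbellatus at 30.9, 22.47 and 41.6 CPM. Here the P. umbellatus libraries lay clear of the P. chinensis ones and the B. chinense libraries overlapped them. For MT-ND6, at 335.3, 314.2 and 296.5 CPM with P. chinensis, the libraries of both other herbs lay lower without overlap. The nuclear count ran from 2 without P. chinensis replicate 3 to 34 without P. umbellatus replicate 3, and the shares over all genes in these fits are not given here.

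The response of A549 minus that of Huh7 was tested for each herb as an interaction over the 12924 genes tested in both lines. With P. chinensis, 0 nuclear members were higher and 2 lower in this difference, and 1 mitochondrial member was lower, against 10.3% and 9.3% of all genes. These were MT-ND3 (-1.19 ± 0.32, edgeR adjusted p = 0.0101), ATP5PD (-0.38, adjusted p = 0.0325) and SDHB (-0.37, adjusted p = 0.0273). With B. chinense, 1 nuclear member was higher and 2 lower, against 5.8% and 5.8%, and 0 mitochondrial members passed (1 at an unadjusted p under 0.05). These were NDUFC2 (0.46, adjusted p = 0.0255), SDHB (-0.38, adjusted p = 0.0378) and ATP5F1B (-0.20, adjusted p = 0.0356). For the latter, the A549 controls lay above the B. chinense libraries as given above, and the Huh7 libraries stood at 1036, 1069 and 1012 CPM in controls and at 1031, 1008 and 1065 CPM with B. chinense, so that the groups overlapped there. With P. umbellatus, 19 nuclear members were higher and 0 lower and 1 mitochondrial member was higher and 3 lower, against 19.1% and 15.3%. The largest were NDUFS7 (1.26), NDUFB8 (1.03), NDUFB11 (0.93) and NDUFA13 (0.90) among nuclear genes and MT-ATP8 (-1.46), MT-ND6 (1.03), MT-ND4L (-0.97) and MT-ND2 (-0.87) among mitochondrial ones. The nuclear count rose to 30 without Huh7 P. umbellatus replicate 3. The nuclear count was 0 with P. chinensis without A549 P. chinensis replicate 1 or A549 control replicate 1, and 0 with B. chinense without A549 B. chinense replicate 2, A549 control replicate 1 or Huh7 control replicate 3.

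With B. chinense in A549 the rotor ring genes ATP5MC1, ATP5MC2 and ATP5MC3 were all called down, as given above. Among the sets below, the other calls covered only part of a set. UQCRH, the hinge protein of complex III, has a near-identical copy, UQCRHL, and the estimated counts of both are uncertain. UQCRH fell with P. umbellatus in Huh7, from 55.03, 49.86 and 51.38 CPM to 26.87, 37.74 and 45.91 CPM (-0.49 ± 0.15, edgeR adjusted p = 0.0247). UQCRHL stood between 0.977 and 1.541 CPM in the same libraries (-0.31 ± 0.35, adjusted p = 0.464). A difference between the fold changes of UQCRH and UQCRHL was not tested. Of the rotor ring genes, ATP5MC1 (-0.63, adjusted p = 0.00756) and ATP5MC2 (-0.55, adjusted p = 0.013) fell with P. umbellatus in Huh7, and ATP5MC3 stood at -0.12 (adjusted p = 0.158). COX6B1 fell there by 0.71 (adjusted p = 0.0225), and COX6B2, at 0.3598 to 1.667 CPM over the Huh7 libraries, was called with no herb. COX4I1, COX7A2, COX7A2L, NDUFA4, NDUFA4L2 where tested, and ATP5IF1 passed the test against control with no herb in either line. COX4I1 was higher in Huh7 with P. chinensis than with the mean of the other herbs (0.36 ± 0.089, edgeR adjusted p = 0.0136). ATP5IF1, which blocks reverse action of the ATP synthase, stood at 15.85, 14.85 and 17.01 CPM in the Huh7 controls and at 7.347, 8.36 and 6.846 CPM in the A549 controls (-1.06 ± 0.18, adjusted p = 1.61e-05). The readthrough gene ATP5MF-PTCD1 was called with no herb (-0.35 to 0.03), nor was NDUFC2-KCTD14 in Huh7, where it stood at 0 to 2.877 CPM. ATP5MF also passed with no herb, whereas NDUFC2 fell with P. umbellatus in Huh7 (-0.35, adjusted p = 0.0305).

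**Figure D5:**
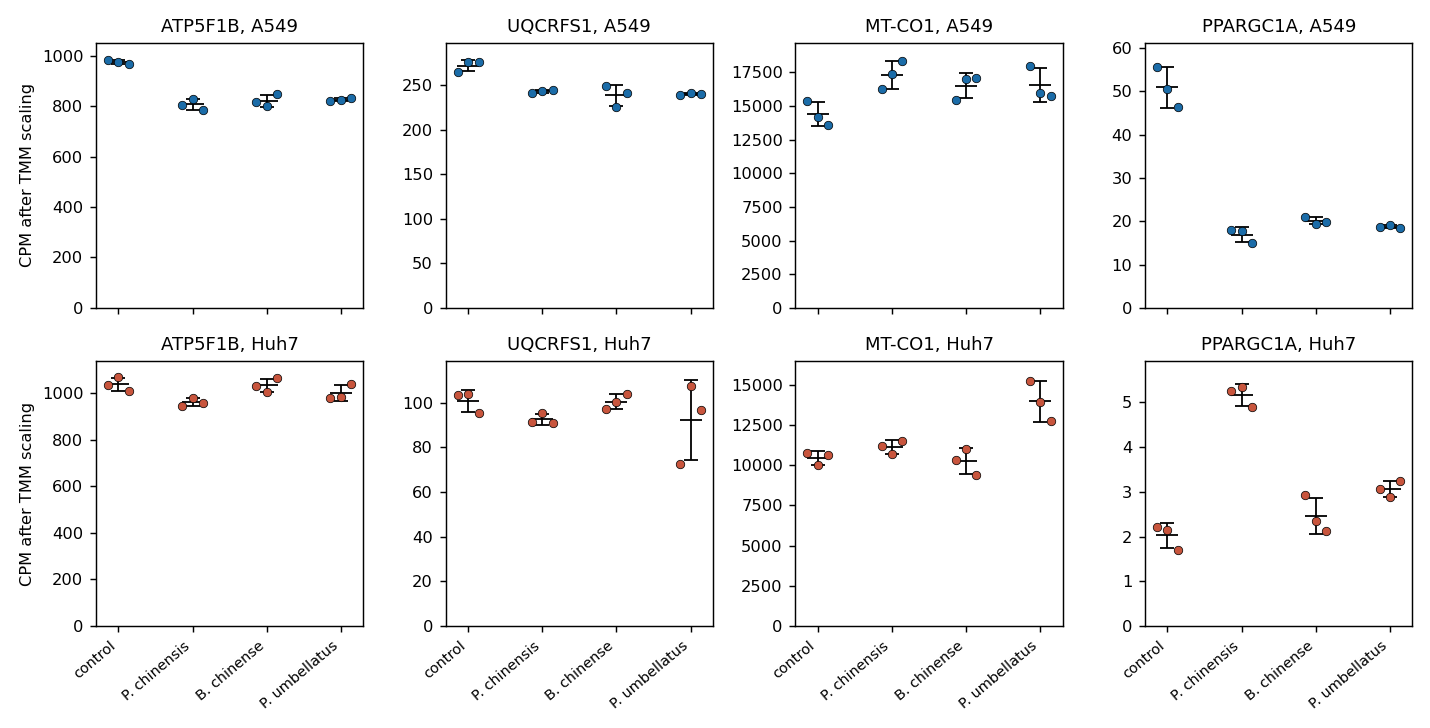
CPM after TMM scaling of ATP5F1B, UQCRFS1, MT-CO1 and the coactivator PPARGC1A in each library of A549 (top, blue) and Huh7 (bottom, red), with means and SD (n = 3) per group and each axis starting at 0. In A549, the treated libraries of ATP5F1B, UQCRFS1 and PPARGC1A all lie below the controls and those of MT-CO1 above them; PPARGC1A in Huh7 stands higher with P. chinensis than in any other group.

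Genes that control or serve the complexes were followed in 4 lists. Of the 12 nuclear regulators of respiratory genes, 8 fell in A549 under P. chinensis, 8 under B. chinense and 7 under P. umbellatus, and 0 rose (edgeR adjusted p below 0.05). Over all genes, 17.1%, 15% and 14.8% fell and 15.8%, 13.1% and 13.4% rose in these comparisons. The list medians were -0.30, -0.29 and -0.26, against -0.06, -0.10 and -0.10 for the nuclear subunits. PPARGC1A, a coactivator known to drive mitochondrial gene expression, stood at 55.74, 50.46 and 46.48 CPM in the A549 controls. It stood at 18.03, 17.78 and 14.99 CPM with P. chinensis, at 20.95, 19.44 and 19.88 CPM with B. chinense and at 18.64, 19.07 and 18.48 CPM with P. umbellatus. These log2 fold changes of -1.58 (SE 0.10, adjusted p = 3.19e-08), -1.33 (adjusted p = 3.34e-07) and -1.43 (adjusted p = 1.41e-07) left a wide gap between treated and control libraries and held in all settings and without any single library. NRF1 fell by 0.51, 0.44 and 0.50 with the same herbs.

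In Huh7, PPARGC1A was low in controls, at 2.207, 2.157 and 1.71 CPM, and stood at 5.258, 5.346 and 4.888 CPM with P. chinensis. Its rise of 1.30 (SE 0.19, edgeR adjusted p = 0.000414) was the only call among the regulators with that extract and held in all settings. With B. chinense it stood at 2.918, 2.339 and 2.12 CPM (0.26, adjusted p = 0.683), and with P. umbellatus at 3.053, 2.881 and 3.237 CPM (0.57, adjusted p = 0.0404, kept in 4 of 9 settings and in 1 of the 12 fits that left out 1 library). The response of A549 minus that of Huh7 was -2.82, -1.55 and -1.93 with P. chinensis, then B. chinense, then P. umbellatus (adjusted p = 3.82e-10, 1.44e-05 and 4.84e-07). With P. umbellatus in Huh7, 4 regulators rose, led by GABPA (0.60) and PPARGC1A, and 2 fell, ESRRA (-0.95), an orphan receptor that works with PPARGC1A, and HCFC1 (-0.51), against 19.3% and 17.8% of all genes. In all 3 genes the second P. umbellatus library lay farthest from the controls: GABPA stood at 49.46, 70.58 and 49.15 CPM against 37.02, 37.04 and 36.74 CPM, ESRRA at 22.47, 12.96 and 25.51 CPM against 40.59, 40.37 and 38.16 CPM, and HCFC1 at 351.8, 204 and 370 CPM against 456.2, 425.5 and 441.2 CPM. ESRRA was called in all 9 settings and without any single library. The call of GABPA held without any single library and was lost after the correction for GC content and length, and that of HCFC1 was lost after this correction and without any single control library. With B. chinense in Huh7, 0 genes of any of the 4 lists were called by edgeR.

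Of the 30 genes for mitochondrial transcription and RNA handling, 1 rose and 10 fell with P. chinensis in A549, 0 rose and 9 fell with B. chinense, and 0 rose and 12 fell with P. umbellatus, where 15.8% and 17.1%, 13.1% and 15%, and 13.4% and 14.8% of all genes rose and fell. PNPT1, a mitochondrial RNA-degrading enzyme, fell most, by 0.99, 0.89 and 0.76 (edgeR adjusted p = 0.00163, 0.00439 and 0.0101). It was followed by LRPPRC, which stabilises mitochondrial mRNAs, with P. chinensis (-0.60), by GRSF1 with B. chinense (-0.43) and by TWNK with P. umbellatus (-0.39), and HSD17B10 rose with P. chinensis (0.23). TFAM, the packaging and transcription factor of the mitochondrial genome, named here after its values were seen, fell by 0.43, 0.37 and 0.35. In Huh7, 0 rose and 2 fell with P. chinensis (LRPPRC, -0.49, and TFB1M, -0.37), and 7 rose and 3 fell with P. umbellatus, against 10.5% and 10.5%, and 19.3% and 17.8%, of all genes. The latter included MTERF3 (0.60) and FASTKD2 (0.47), and the mitochondrial DNA polymerase POLG (-1.04) and RNA polymerase POLRMT (-0.81). POLRMT stood at 0.10 after the correction for GC content and length, which also ended the calls of MTERF3 and FASTKD2, and that of FASTKD2 was lost without any single control library.

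The 57 assembly factors, which build the complexes without being part of them, gave few calls. In A549, 1 rose and 6 fell with P. chinensis, while 0 rose and 6 fell with each of the other herbs. These numbers of falls among 57 genes lie below the shares over all genes, which were 17.1%, 15% and 14.8% with P. chinensis, then B. chinense, then P. umbellatus. ECSIT, a complex I assembly factor, fell by 0.43, 0.56 and 0.61, UQCC3 by 0.51, 0.53 and 0.55 and UQCC2 by 0.35, 0.59 and 0.43 in the same order, and UQCC1 rose with P. chinensis by 0.42. In Huh7, 2 rose and 3 fell with P. chinensis (UQCC5, 1.04, COX10, 0.31, NDUFAF5, -0.44, and ACAD9, -0.43, at the ends), and 4 rose and 6 fell with P. umbellatus (UQCC5, 0.58, SDHAF3, 0.55, PET100, -0.70, and FOXRED1, -0.70, at the ends). The call of UQCC5 with P. umbellatus was kept in 1 of 9 settings. Among the 25 electron carriers and nucleotide exchangers, 1 rose and 10 fell with P. chinensis in A549, 2 rose and 9 fell with B. chinense, and 1 rose and 12 fell with P. umbellatus, against the same shares of falls and 15.8%, 13.1% and 13.4% of rises over all genes. COQ10B, a ubiquinone-binding protein, rose with every herb in A549 (0.65, 0.37 and 0.40) and with P. chinensis (0.48) and P. umbellatus (0.35) in Huh7. Those that fell most in A549 were ETFA (-0.85) and COQ2 (-0.78) with P. chinensis, COQ2 (-0.71) and COQ7 (-0.46) with B. chinense, and COQ3 (-0.72) and ETFA (-0.69) with P. umbellatus, and COQ4 rose with B. chinense (0.30). In Huh7, 2 rose and 3 fell with P. chinensis, where VDAC2 rose (0.43) and COQ8A (-0.79) and CYC1 (-0.35) fell. With P. umbellatus 3 rose and 3 fell, among them CYCS, cytochrome c (0.38), COQ8A (-0.75) and SLC25A6 (-0.66). Over all genes in Huh7, 10.5% rose and 10.5% fell with P. chinensis, and 19.3% rose and 17.8% fell with P. umbellatus.

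Promoters were searched for the core motifs of NRF1 (GCGCATGC), GABPA (CCGGAAG) and YY1 (AAGATGGC), on both strands, in RefSeq windows of 300 bases, from 250 before to 50 after the start of the gene (GRCh38.p14). A window was held for 67 of the 84 nuclear members, and ATP5F1B, ATP5MC3 and ATP5F1D were not among them. An NRF1 match was present in 13 of the 67 (19.4%), against 5.04% of 11758 genes of the table and 3.27% of all 27305 promoters. GABPA matches were present in 20 (29.9%, against 17.8% and 10.7%) and YY1 matches in 11 (16.4%, against 4.81% and 3.03%). The windows below are those of the gene that fell in the most of the 6 comparisons, ATP5MC1 in 4, and of 3 genes that fell in 2, picked because they hold a match. UQCRFS1, which fell in 3, has a window without any match. They lie at chr17:48892537-48892836, plus strand, chr1:17053983-17054282, minus strand, chr19:1605413-1605712, minus strand, and chr12:53676034-53676333, minus strand. Capitals mark the motif matches.
ATP5MC1: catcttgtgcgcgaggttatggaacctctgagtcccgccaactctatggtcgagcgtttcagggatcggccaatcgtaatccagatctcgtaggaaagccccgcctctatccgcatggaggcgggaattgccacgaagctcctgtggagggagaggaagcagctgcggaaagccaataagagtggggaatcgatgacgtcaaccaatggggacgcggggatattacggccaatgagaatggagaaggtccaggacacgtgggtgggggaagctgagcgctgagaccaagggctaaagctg
SDHB: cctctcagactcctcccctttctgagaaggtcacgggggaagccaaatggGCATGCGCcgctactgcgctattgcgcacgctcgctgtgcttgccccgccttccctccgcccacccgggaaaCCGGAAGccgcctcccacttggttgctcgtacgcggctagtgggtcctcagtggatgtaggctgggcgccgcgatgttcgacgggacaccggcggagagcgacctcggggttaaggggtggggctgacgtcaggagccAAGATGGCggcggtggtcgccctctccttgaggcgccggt
UQCR11: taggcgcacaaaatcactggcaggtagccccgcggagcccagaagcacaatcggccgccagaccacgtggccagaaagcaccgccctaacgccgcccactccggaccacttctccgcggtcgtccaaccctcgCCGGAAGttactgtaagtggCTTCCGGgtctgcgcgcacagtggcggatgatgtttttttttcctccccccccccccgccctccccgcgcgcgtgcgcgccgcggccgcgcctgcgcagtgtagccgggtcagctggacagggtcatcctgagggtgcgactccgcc
ATP5MC2: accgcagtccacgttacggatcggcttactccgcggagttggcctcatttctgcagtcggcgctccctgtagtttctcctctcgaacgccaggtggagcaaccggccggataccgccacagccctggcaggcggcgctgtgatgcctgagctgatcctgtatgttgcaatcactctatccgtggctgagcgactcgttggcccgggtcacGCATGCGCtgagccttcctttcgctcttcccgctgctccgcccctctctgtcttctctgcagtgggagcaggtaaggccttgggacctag
The ATP5MC1 window holds none of the motifs, the SDHB window 1 of each, the UQCR11 window 2 GABPA matches, and the ATP5MC2 window 1 NRF1 match. Of the other genes that fell in 2 comparisons, COX8A has 1 GABPA and UQCRC1 1 YY1 match, and NDUFV1 has none. The motifs do not overlap one another in these windows. A match describes these letters and is not evidence of binding.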

How the data were processed

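RNA of 24 libraries (2 lines, 4 groups, 3 replicates each) was sequenced in pairs from a stranded total RNA kit with ribosomal RNA removal. Per the labels and the study's methods, FastQC was used for read quality and kallisto for quantification against the GRCh38.p13 transcripts. The authors deposited estimated counts per gene in whole numbers, not scaled to library size, and their methods describe a filter for coding genes whose average count was over 5. In GENCODE, 14584 of the 14585 rows are protein-coding. How transcripts were summed to genes and the strand setting of kallisto were not given in the sources used here.

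Symbols and canonical transcripts (length and GC content) were taken from GENCODE by Ensembl identifier, matched for the same 14584 rows. Within each line, genes with a mean count above 5 (13633 in A549, 13875 in Huh7) were scaled by TMM and tested with edgeR 4.0.16 (quasi-likelihood test, two-sided, all 12 libraries of the line, 1 coefficient per group, prior count 2, R 4.3.3, limma 3.58.1), with Benjamini-Hochberg adjustment over all genes and a threshold of 0.05. Interactions and control groups were tested over all 24 libraries. The standard error is the size of the unshrunk coefficient divided by the square root of the F statistic. Depth was 6803704 to 24345541 counts per library, and shares of counts carry counting error besides the spread given. Alternatives were DESeq2 1.42.0, other scalings, no filter, the 6 libraries compared, a replicate block, and a correction for GC content and length in 20 bins. Counts were simulated for P. chinensis against control, with 100 genes changed by 0.5, 100 by 1 (log2) and no others. In A549 edgeR found 41 and 69 of them, with 9 false calls, and in Huh7 22 and 63, with 1 false call. DESeq2 found 45 and 72 in A549, with 18 false calls, and 37 and 71 in Huh7, with 29. In the real comparisons far more genes were called, so these rates need not hold there.

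The members and gene lists were chosen with earlier results of these data known. Named genes are the 13 mitochondrial genes, the 4 called nuclear members with the largest rise and fall in each comparison, fixed paralogue and readthrough sets, the SDH genes, the 4 largest differences each way between controls and in interactions, and the 2 largest called changes each way in each list. Other named genes were added after their values were seen: those called with several herbs or at the ends of the tests, and NDUFA3 and TFAM. The result of 1 member is not reported here by name, and the counts include it.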

Additional observations from a re-analysis of the deposited data

Results flagged for a closer look

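The response of A549 minus that of Huh7 passed the interaction test (edgeR quasi-likelihood test, Benjamini-Hochberg adjusted p below 0.05) for the following members, with values on the log2 scale. With P. chinensis these were MT-ND3 (-1.19), ATP5PD (-0.38) and SDHB (-0.37). With B. chinense they were SDHB (-0.38), ATP5F1B (-0.20) and NDUFC2 (0.46).

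With P. umbellatus, 3 mitochondrially encoded genes were lower in this difference, MT-ATP8 (-1.46), MT-ND4L (-0.97) and MT-ND2 (-0.87), and MT-ND6 was higher (1.03). Nuclear genes of complex I included NDUFC2 (0.47), NDUFB9 (0.54), NDUFA11 (0.64), NDUFV1 (0.65), NDUFS8 (0.73), NDUFA13 (0.90), NDUFB11 (0.93), NDUFB8 (1.03) and NDUFS7 (1.26). Those of the other complexes were SDHC (0.42), SDHA (0.74), UQCR10 (0.51), COX5B (0.51), COX6B1 (0.71), COX8A (0.73), ATP5MC1 (0.55), ATP5MC2 (0.61) and ATP5F1D (0.89). The Huh7 P. umbellatus libraries differed from one another by more than the libraries of any other group, and the fold changes there fell with the GC content of the transcripts. The part of either in these differences was not tested.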

How the results depend on the processing

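Of the single-gene results under other settings, 1433 kept their direction and their side of the threshold, 230 lost the call and 19 changed sign. When 1 library was left out, 1855 kept both and 455 lost the call.

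All changes of sign came with the correction for GC content and length. With P. umbellatus in Huh7, values were 0.222 for UQCRC1, 0.101 for ATP5F1D, 0.105 for POLRMT, 0.208 for NDUFS8 and 0.226 for NDUFA11, and with the replicate block added 0.221, 0.106, 0.104, 0.208 and 0.222. Of these genes, UQCRC1 and NDUFS8 were called up without the block, and UQCRC1 with it. With P. chinensis against the other herbs in Huh7 values were -0.0529 for NDUFB7, -0.0135 for NDUFB10 and -0.0155 for NDUFA13, and with the block -0.052, -0.0145 and -0.0172. In the interaction with P. umbellatus they were -0.126 for ATP5F1D, -0.0511 for NDUFS8 and -0.155 for NDUFA11. The causes of these and of the following changes were not tested. Counts of members below are given without the shares over all genes in the same fits.

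Under that correction the nuclear members called up in A549 were 3, 2 and 3 with P. chinensis, then B. chinense, then P. umbellatus, and those called down 3, 3 and 4, with medians of -0.00399, -0.000346 and 0.0128. With the replicate block added, 4, 1 and 3 were up and 3, 3 and 2 down, with medians of -0.00434 for B. chinense and 0.0038 for P. umbellatus. In Huh7 with P. chinensis, 2 were up and 8 down (7 down with the block), with a median of 0.0413 (0.0409). With P. umbellatus, 5 nuclear members were up (4 with the block) and 2 mitochondrial members (2), and 17 nuclear members were down with the block. The interactions gave 4 nuclear and 2 mitochondrial members for P. chinensis, 1 mitochondrial member for B. chinense and 2 for P. umbellatus.

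With library totals in place of TMM, the nuclear members in A549 were 2 up and 1 down (median 0.00677), 2 up and 3 down (median -0.0462), and 1 up and 5 down with P. chinensis, then B. chinense, then P. umbellatus. With P. chinensis in Huh7, 5 nuclear and 2 mitochondrial members were up, and the interaction had 2 mitochondrial members, as it did with RLE factors and with DESeq2. DESeq2 also gave 2 nuclear members up, 3 down and 2 mitochondrial members up with P. chinensis in Huh7, and 1 nuclear member down with B. chinense. RLE factors, or leaving the mitochondrial genes out of the scaling, gave 0 nuclear members up with P. umbellatus in Huh7, and the latter 1 nuclear member down with P. chinensis. With only the 6 libraries compared, 0 nuclear members were up and 3 mitochondrial members down with P. chinensis in A549, and 5 nuclear members were down with B. chinense and 5 with P. umbellatus. In Huh7 that fit gave 25 nuclear members up, 11 down and 12 mitochondrial members up with P. chinensis, 1 nuclear member down with B. chinense, and 0 nuclear up, 6 down and 1 mitochondrial up with P. umbellatus.

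With the replicate block alone, 0 nuclear members were up with P. chinensis in A549, and 0 with P. chinensis and with P. umbellatus in Huh7, while those down in A549 were 5, 6 and 7 with P. chinensis, then B. chinense, then P. umbellatus. The replicate numbers did not pair the libraries: deviations from the group means correlated between -0.0619 and 0.0515 for the same number in A549 and between -0.0318 and 0.0361 in Huh7, against -0.0461 to 0.0781 and -0.0392 to 0.027 for different numbers.

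Leaving out 1 library at a time moved the counts as follows. In A549, nuclear members up ran from 0 to 2 with P. chinensis, those down from 3 to 7, 3 to 9 and 5 to 13 with P. chinensis, then B. chinense, then P. umbellatus, and mitochondrial members up from 0 to 1 with B. chinense and from 0 to 1 with P. umbellatus. Mitochondrial members down ran from 0 to 2 with P. chinensis (2 without P. umbellatus replicate 1, 1 without control replicate 1) and from 0 to 3 with P. umbellatus (3 without its replicate 1). P. chinensis against the other herbs had 0 to 1 nuclear members (1 without P. umbellatus replicate 1). The nuclear rise with P. chinensis was lost (0) without any of P. chinensis replicates 1 and 3, control replicates 2 and 3 and P. umbellatus replicate 3.

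In Huh7 with P. chinensis, nuclear members up ran from 0 to 12, those down from 0 to 6, mitochondrial members up from 1 to 6 and the nuclear median from 0.0586 to 0.143. With B. chinense the nuclear median ran from -0.0578 (without its replicate 2) to 0.00408. With P. umbellatus nuclear members up ran from 0 to 8 (8 without its replicate 1, 3 without its replicate 3, 0 without any other library), those down from 14 to 30 and mitochondrial members up from 2 to 11. P. chinensis against the other herbs had 2 to 34 nuclear and 1 to 6 mitochondrial members: the nuclear count was 28 and 34 without P. umbellatus replicates 2 and 3, 4, 5 and 2 without P. chinensis replicates 1, 2 and 3, 7, 9 and 6 without those of B. chinense, and 9 and 8 without control replicates 1 and 2. The interactions had 0 to 3 nuclear and 1 to 2 mitochondrial members with P. chinensis, 0 to 3 nuclear with B. chinense, and 14 to 30 nuclear and 2 to 6 mitochondrial with P. umbellatus. The control groups differed in 4 to 8 mitochondrial members.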
